A study of Mus musculus with 3 samples.

Results

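Hepatokines are proteins that the liver secretes and that act on metabolism, in the liver itself or in other tissues. The 9 examined here were Fgf21, Angptl4, Angptl6, Inhbe, Inhbc, Fst, Lect2, Ahsg and Fetub, chosen by name as liver-secreted metabolic regulators; all 9 had a row among the 41799 genes of each table. Liver RNA of male C57BL/6 mice, 14 weeks old, was sequenced, with 1 library for each of 3 groups. The first group was fed a high-fat diet (HFD) and given DfCS-Ib by oral gavage at 40 mg/kg in distilled water; the series names the agent only by this code and as a sulfated oligosaccharide. The second was fed the high-fat diet, without DfCS-Ib, and the third regular chow. The labels give 8 mice to a group and free access to food and water. They do not say how many mice gave RNA to a library, how long the diets lasted or whether food was withdrawn before sampling. With 1 library per group no difference has a replicate check, no p-value was computed, and every comparison is between these libraries and not between the conditions.

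FGF21 is a hormone that signals through FGF receptors together with the co-receptor beta-klotho, and its gene is known in mouse liver as a target of the fasting-responsive nuclear receptor PPAR alpha and of the stress factor ATF4. ANGPTL4 inhibits lipoprotein lipase, which releases fatty acids from circulating triglyceride, and ANGPTL6 is a relative that has been linked to energy expenditure in mice. Inhbe and Inhbc encode the activin beta-E and beta-C chains, TGF-beta family ligands made mostly by hepatocytes, and follistatin, from Fst, binds and blocks activins. LECT2 is a chemotactic hepatokine whose gene is a known target of beta-catenin in mouse liver, and Ahsg and Fetub encode fetuin-A and fetuin-B, abundant plasma proteins of the cystatin superfamily; fetuin-A inhibits the insulin receptor.

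The 250 bases before the annotated start are shown for Fgf21 and Inhbe, which were at least 2-fold higher in the DfCS-Ib library than in either of the others, for Inhbc, the neighbour and paralogue of Inhbe, and for Lect2, which stood highest in the high-fat library. They are RefSeq sequences of GRCm38.p6, the assembly that mm10 names, read 5′ to 3′ on the minus strand, where all these genes lie: chr7:45615491-45615740 for Fgf21, chr10:127351849-127352098 for Inhbe, chr10:127370549-127370798 for Inhbc and chr13:56548539-56548788 for Lect2. Capitals mark the motif matches described after them.
Fgf21: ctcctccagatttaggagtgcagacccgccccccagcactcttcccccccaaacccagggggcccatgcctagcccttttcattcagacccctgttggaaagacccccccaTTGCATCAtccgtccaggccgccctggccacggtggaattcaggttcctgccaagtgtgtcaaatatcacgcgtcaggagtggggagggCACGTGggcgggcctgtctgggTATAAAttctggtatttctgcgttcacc
Inhbe: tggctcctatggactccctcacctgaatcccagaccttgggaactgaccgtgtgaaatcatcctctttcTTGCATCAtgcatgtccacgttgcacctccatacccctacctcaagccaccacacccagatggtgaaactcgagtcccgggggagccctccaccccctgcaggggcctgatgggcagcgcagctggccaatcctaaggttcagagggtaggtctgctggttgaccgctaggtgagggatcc
Inhbc: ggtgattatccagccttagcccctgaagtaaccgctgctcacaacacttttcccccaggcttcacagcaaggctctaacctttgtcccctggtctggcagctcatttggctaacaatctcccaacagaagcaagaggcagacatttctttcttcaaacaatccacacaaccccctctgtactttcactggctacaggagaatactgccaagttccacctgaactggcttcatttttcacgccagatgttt
Lect2: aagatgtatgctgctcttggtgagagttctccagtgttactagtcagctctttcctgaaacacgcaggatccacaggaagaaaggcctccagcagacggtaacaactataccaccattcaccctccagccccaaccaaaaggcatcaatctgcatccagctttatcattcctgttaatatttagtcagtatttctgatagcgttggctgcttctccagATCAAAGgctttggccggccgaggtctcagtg

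Fgf21 and Inhbe both held TTGCATCA, which is TGATGCAA read on the other strand, the core of the composite element that ATF4 binds with C/EBP proteins. In Fgf21 it lay 132 to 139 bases before the start and in Inhbe 174 to 181 bases before it. Of the 7 hepatokine genes with a promoter in the table, these 2 held the letters, on either strand, as did 248 of 27025 genes in all, or 0.918%. In the list of ATF4 and integrated stress genes described further on, 4 of 15 with a promoter held them: Chac1, Atf3, Nupr1 and Slc7a11. The 4 genes of that list at least 2-fold higher with DfCS-Ib than on the high-fat diet were not among them. Those were Cth, Asns, Ddit4 and Trib3. Fgf21 also held the E-box CACGTG at 45 to 50 bases before the start and a TATAAA at 23 to 28; these letters occurred in 6.86% and 14.3% of genes. Lect2 held ATCAAAG, the letters of the TCF/LEF element through which beta-catenin acts, as did 3.72% of genes. They lay 26 to 32 bases before the start that the window uses. The RefSeq gene reaches to 56548559, so the last bases of the Lect2 window as printed lie within it. The direct repeat of AGGTCA with 1 base between the copies, an idealised site of PPAR alpha and its partner RXR, was in none of these windows and in 11 genes of all. None of the 5 motifs overlapped another in these windows, all were searched on both strands, and the letters were chosen after the sequences had been seen. A match describes the letters and does not show binding.

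The libraries held 10969699, 12279537 and 11028671 counts for DfCS-Ib, the high-fat diet and chow. The 10 hepatocyte markers summed to 144718, 130556 and 162921 CPM in the same order. The lowest were Serpina1a, at 25.4, 23.6 and 23.98 CPM, and Cps1, at 78.02, 48.4 and 112 CPM. Of the 10, Cps1 alone was at least 2-fold lower on the high-fat diet than on chow, as 2.27% of all genes were. In all 3 libraries 3 of 5 skeletal muscle markers and 5 of 6 exocrine pancreas markers were listed at 0. The remaining pancreas marker, Cela1, had 57, 170 and 36 counts with DfCS-Ib, on the high-fat diet and on chow. Of 6 adipocyte markers, Retn and Lep were listed at 0 and Adipoq and Plin1 had at most 1 count, while Cfd had 3, 77 and 1 counts and Fabp4 112, 77 and 73 counts in the same order; their summed level was 10.7, 12.1 and 6.88 CPM. Cfd and Cela1 were thus highest in the high-fat library, as Lect2, Inhbc, Angptl6 and Inhba were, and their part in those values was not tested. CPM are read counts divided by the scaled library total, in the usual unit of that name. Kupffer cell and macrophage markers differed between the libraries. All 12 were higher in the DfCS-Ib library than in the high-fat library, 3 of them at least 2-fold, as 2.46% of all genes were. Their summed level was 769.9 CPM with DfCS-Ib, 438 CPM on the high-fat diet and 363 CPM on chow. More cells of a type and more RNA per cell cannot be told apart in whole liver, and the part of this difference in the hepatokine values was not tested.

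Of the 9 hepatokine genes, 8 had counts in every library and a mean of at least 1 CPM, the minimum for comparison. Angptl4 was listed at 0 in all 3 libraries. The files place it on contig NT_039662.3, at 23655 to 30330, whereas RefSeq places it on chromosome 17, at 33774900 to 33781575 of GRCm38.p6. Of 1144 genes that the files place on such contigs 77.7% were listed at 0 throughout, against 44.3% of 40655 genes on the main chromosomes. A count of 0 allows up to 3 counts, or 0.280, 0.233 and 0.279 CPM in the DfCS-Ib, high-fat and chow libraries, at the place given in the files. The zero therefore says nothing on how much Angptl4 RNA the livers held.

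Levels are compared between genes by RPKM, which divides the counts by gene length and by the library total. Ahsg was by far the most abundant, at 4726, 3469 and 4399.7 RPKM with DfCS-Ib, on the high-fat diet and on chow, which placed it 11th, 15th and 11th among all genes. Fetub followed at 217, 174 and 198.6 RPKM. The third place differed between the libraries. It was taken by Inhbe with DfCS-Ib, at 32.7 RPKM, by Lect2 on the high-fat diet, at 38.3 RPKM, and by Inhbc on chow, at 22.6 RPKM. At the low end Fgf21 stood sixth of the 8 with DfCS-Ib, at 7.24 RPKM, and last in the other libraries, at 0.64 RPKM on the high-fat diet and 1.78 RPKM on chow. The order of neighbours was within counting error for Fgf21 and Angptl6 with DfCS-Ib, for Fst and Fgf21 on the high-fat diet, and, on chow, for Lect2 and Inhbe and for Fst and Fgf21; for all other neighbours the 95% Poisson intervals did not overlap.

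**Figure D1:**
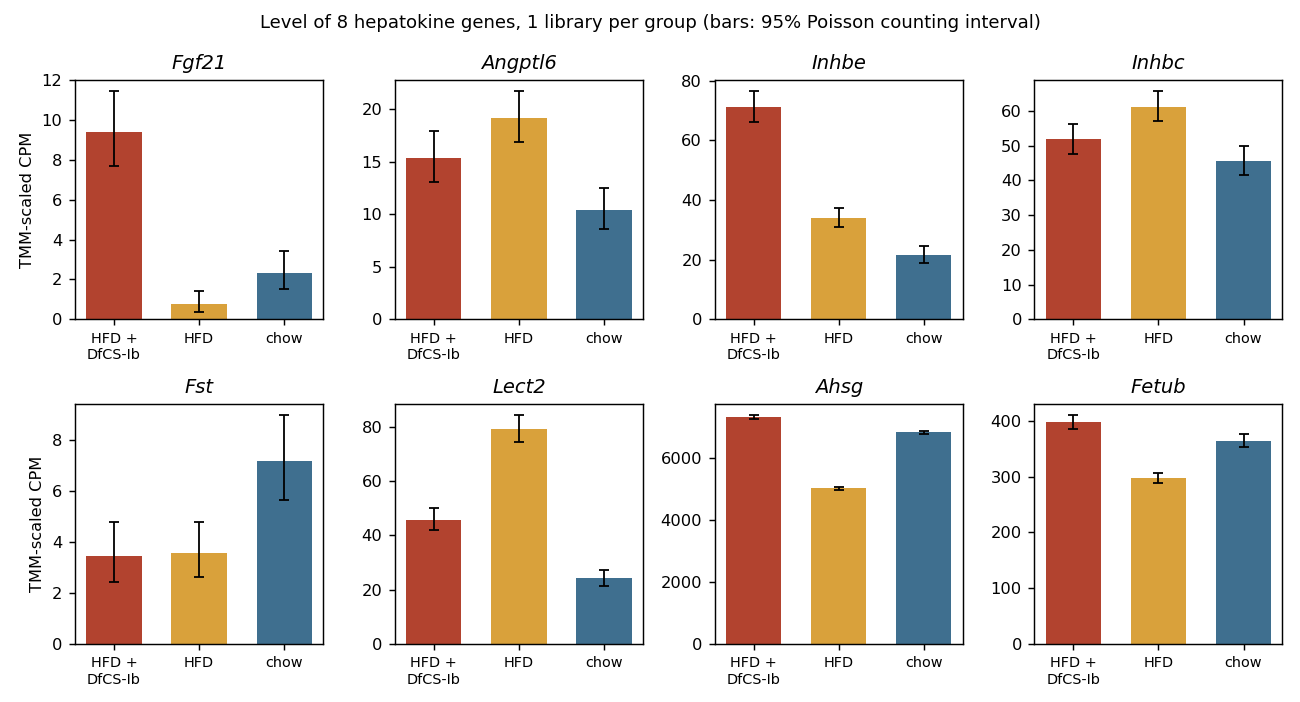
Level of each measured hepatokine gene in TMM-scaled CPM, with 1 bar per library and the 95% Poisson interval of its count; each panel has its own vertical axis from 0. Fgf21 and Inhbe are highest in the DfCS-Ib library (9.41 and 71.3 CPM), Lect2 in the high-fat library (79.2 CPM) and Fst in the chow library (7.16 CPM).

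Fgf21 was the hepatokine gene with the largest difference. It lies on the minus strand of chromosome 7, at 45613890 to 45619350 of mm10 in the files. It had 101 counts in the DfCS-Ib library, 10 in the high-fat library and 25 in the chow library. These are 9.41 CPM (7.67 to 11.4), 0.777 CPM (0.373 to 1.43) and 2.32 CPM (1.503 to 3.43), with 95% Poisson intervals that are all apart and that cover counting error only, as do all intervals given here. The DfCS-Ib library stood 12.1-fold (6.32 to 26.03) above the high-fat library and 4.05-fold (2.59 to 6.55) above chow. The high-fat library stood 2.99-fold (1.39 to 6.97) below chow. Fold intervals are exact binomial (Clopper-Pearson) ones.

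Whether a gene was counted as 2-fold apart was decided on the log2 ratio of CPM + 1, which understates the difference of a gene with so few counts. On that scale Fgf21 was 2.55 above the high-fat library in the DfCS-Ib library, with 22 of 13153 genes at or above its value, itself included, and 1.65 above chow, with 42 genes at or above it. For the high-fat library against chow it was -0.90, short of 2-fold, and -1.32 with a pseudocount of 0.25. In the files the gene reaches beyond the RefSeq gene, which ends at 45615490, so the promoter shown lies within it, and 2085 bases overlap Fut1 on the other strand. Fut1 had 0, 1 and 0 counts in the DfCS-Ib, high-fat and chow libraries.

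The activin chain genes Inhbe and Inhbc are neighbours on chromosome 10, at 127349402 to 127351772 and 127356325 to 127370544, and differed from each other. Inhbe had 765 counts with DfCS-Ib, 437 on the high-fat diet and 232 on chow, or 71.3 CPM (66.3 to 76.5), 33.96 CPM (30.9 to 37.3) and 21.6 CPM (18.9 to 24.5). Its 3 intervals are all apart, with chow the lowest. The DfCS-Ib library was 2.1-fold (1.86 to 2.37) above the high-fat library and 3.31-fold (2.85 to 3.85) above chow, and the high-fat library 1.58-fold (1.34 to 1.86) above chow. The first of these lies at the edge of the 2-fold rule: its log2 ratio was 1.05, and 0.95 without scaling factors.

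Inhbc had 556, 788 and 491 counts in the DfCS-Ib, high-fat and chow libraries, or 51.8 CPM (47.6 to 56.3), 61.2 CPM (57.04 to 65.7) and 45.6 CPM (41.7 to 49.8). It was highest on the high-fat diet, and no pair of libraries differed by as much as 1.5-fold. The ratio of Inhbe to Inhbc counts within a library does not depend on the scaling between libraries. It was 1.38 (1.23 to 1.54) with DfCS-Ib, 0.555 (0.492 to 0.624) on the high-fat diet and 0.473 (0.402 to 0.553) on chow. The ratio in the DfCS-Ib library was 2.48 times (2.11 to 2.92) that in the high-fat library and 2.91 times (2.396 to 3.54) that in the chow library. Between the high-fat and chow libraries it differed by 1.17 times (0.961 to 1.43), an interval that includes 1.

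**Figure D2:**
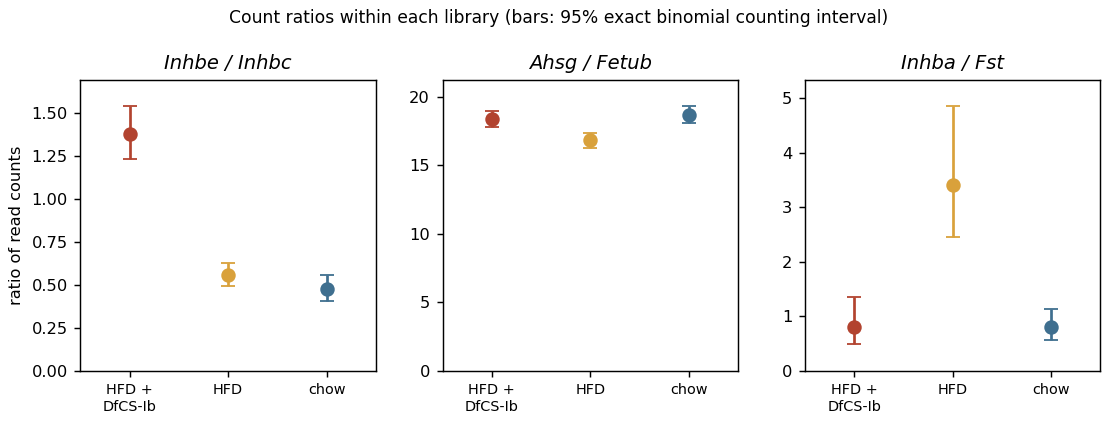
Ratio of the read counts of 2 genes within each library, for the activin chain genes Inhbe and Inhbc, the fetuin genes Ahsg and Fetub, and the activin chain gene Inhba and its inhibitor gene Fst, with 95% exact binomial intervals. Inhbe exceeds Inhbc in the DfCS-Ib library alone of the 3, at 1.38, the fetuin ratio stays between 16.8 and 18.7, and Inhba exceeds Fst in the high-fat library, at 3.41.

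Fst, on chromosome 13 at 114452262 to 114458951, was a gene of few counts. It had 37 in the DfCS-Ib library, 46 in the high-fat library and 77 in the chow library, or 3.45 CPM (2.43 to 4.75), 3.57 CPM (2.62 to 4.77) and 7.16 CPM (5.65 to 8.94). Chow stood above both libraries of the high-fat diet, whose intervals overlap almost wholly. The DfCS-Ib library was 2.07-fold (1.38 to 3.16) and the high-fat library 2.002-fold (1.37 to 2.95) below chow, and on the scale of CPM + 1 both fell short of 2-fold, at -0.87 and -0.83.

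The activins that follistatin is best known to bind are built from the beta-A and beta-B chains. Inhba, which encodes beta-A, had 30, 157 and 62 counts in the DfCS-Ib, high-fat and chow libraries, and was 4.36-fold (2.94 to 6.68) lower with DfCS-Ib than on the high-fat diet. The ratio of Inhba to Fst counts was 0.811 (0.484 to 1.35) with DfCS-Ib, 3.41 (2.44 to 4.85) on the high-fat diet and 0.805 (0.567 to 1.14) on chow. Inhbb, which encodes beta-B, lay the other way, with 95, 41 and 101 counts; it was 2.78-fold (1.91 to 4.11) higher with DfCS-Ib than on the high-fat diet and 2.95-fold (2.03 to 4.34) lower on the high-fat diet than on chow. The 4 activin beta chain genes thus had 4 patterns over the libraries.

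Lect2, on chromosome 13 at 56528959 to 56548561, was the one hepatokine gene at least 2-fold apart between the high-fat and chow libraries. It had 491 counts with DfCS-Ib, 1019 on the high-fat diet and 260 on chow, or 45.8 CPM (41.8 to 49.998), 79.2 CPM (74.4 to 84.2) and 24.2 CPM (21.3 to 27.3). All 3 intervals are apart, with the DfCS-Ib library between the others. The high-fat library was 3.28-fold (2.86 to 3.77) above chow. The DfCS-Ib library was 1.73-fold (1.55 to 1.93) below the high-fat library and 1.89-fold (1.63 to 2.21) above chow. Lect2 shares 9733 bases with Fbxl21, on the other strand, which had 29, 86 and 28 counts in the same order of libraries; the strand setting of the counting is not given in the sources used here, so reads cannot be assigned to one strand or the other.

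The fetuin genes are neighbours on the plus strand of chromosome 16, Ahsg at 22892015 to 22899451 and Fetub at 22918382 to 22939768, and they differed by less than 1.5-fold between any 2 libraries, in the same order. Ahsg had 78489, 64489 and 73463 counts in the DfCS-Ib, high-fat and chow libraries, or 7316, 5012 and 6827 CPM. Fetub had 4267, 3833 and 3927 counts, or 398, 297.9 and 364.9 CPM. Both were lowest on the high-fat diet and highest with DfCS-Ib. Of the 10 hepatocyte markers, 9 were likewise higher with DfCS-Ib than on the high-fat diet and 1 lower. On the high-fat diet 6 of them were lower than on chow and 4 higher. The part of this in the fetuin values was not tested. The DfCS-Ib library exceeded the high-fat library by 1.46-fold (1.44 to 1.48) for Ahsg and 1.34-fold (1.28 to 1.395) for Fetub, and chow by 1.07-fold (1.06 to 1.08) and 1.09-fold (1.04 to 1.14). The high-fat library was below chow by 1.36-fold (1.35 to 1.38) and 1.23-fold (1.17 to 1.28).

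At such depth the counting intervals are narrow. The spread between animals, not measured here, limits these comparisons, and so does the scaling between libraries. Without scaling factors the log2 ratio of Ahsg for DfCS-Ib against the high-fat diet was 0.446 in place of 0.546. For the high-fat diet against chow it was -0.343 in place of -0.446. The ratio of Ahsg to Fetub counts was 18.4 (17.8 to 18.97) with DfCS-Ib, 16.8 (16.3 to 17.4) on the high-fat diet and 18.7 (18.1 to 19.3) on chow. The ratio with DfCS-Ib was 1.09 times (1.045 to 1.14) that on the high-fat diet and 0.983 times (0.9402 to 1.03) that on chow, and the ratio on the high-fat diet was 0.899 times (0.859 to 0.942) that on chow; of these intervals the second includes 1. The noncoding genes Gm30505 and Gm30611 overlap Ahsg on the other strand by 2372 and 306 bases. They had 3321, 2653 and 3296 counts and 10842, 8650 and 9681 counts in the same order of libraries. Here too, as for Lect2, reads cannot be assigned to one strand or the other.

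Angptl6, on chromosome 9 at 20873808 to 20879816, was highest on the high-fat diet. It had 165, 247 and 112 counts in the DfCS-Ib, high-fat and chow libraries, or 15.4 CPM (13.1 to 17.9), 19.2 CPM (16.9 to 21.7) and 10.4 CPM (8.57 to 12.5). The intervals for DfCS-Ib and the high-fat diet overlap, and that of chow lies below both. The high-fat library was 1.84-fold (1.47 to 2.33) and the DfCS-Ib library 1.48-fold (1.16 to 1.896) above chow. A230050P20Rik overlaps it by 500 bases on the other strand and had 276, 712 and 367 counts in that order. The limit on strand given for Lect2 holds for Angptl6 too.

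**Figure D3:**
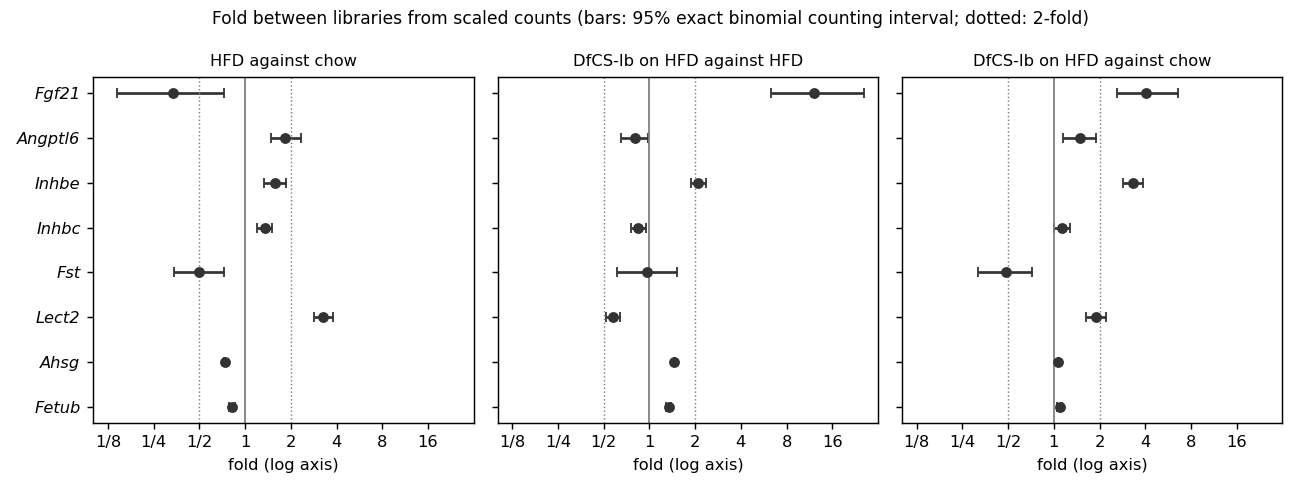
Fold between libraries for each measured hepatokine gene, from scaled counts on a log axis, with 95% exact binomial intervals; dotted lines mark 2-fold. The widest intervals are those of Fgf21, whose fold is 12.1 for DfCS-Ib against the high-fat diet, and Ahsg and Fetub lie within 1.5-fold in all 3 comparisons.

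Counted together, 2 of the 8 measured hepatokine genes, Fgf21 and Inhbe, were at least 2-fold higher in the DfCS-Ib library than in the high-fat library and 0 were lower by as much, where 2.46% of 13153 genes were higher and 2.02% lower by as much, 4.49% in either direction. Over all genes 324 were higher and 266 lower by as much, but 261 and 340 without scaling factors. Against chow the DfCS-Ib library had the same 2 genes at least 2-fold higher and 0 lower, with 1.62% and 0.433% of all genes, 2.05% in either direction. Between the high-fat and chow libraries 1 of 8, Lect2, was higher and 0 were lower, with 3.47% and 2.27% of all genes, 5.74% in either direction. The median log2 ratio of the 8 was 0.19 for DfCS-Ib against the high-fat diet, 0.35 for DfCS-Ib against chow and 0.06 for the high-fat diet against chow, and over all genes the medians were -0.01, 0.00277 and 0.02. The comparisons share libraries and are not independent of each other.

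**Figure D4:**
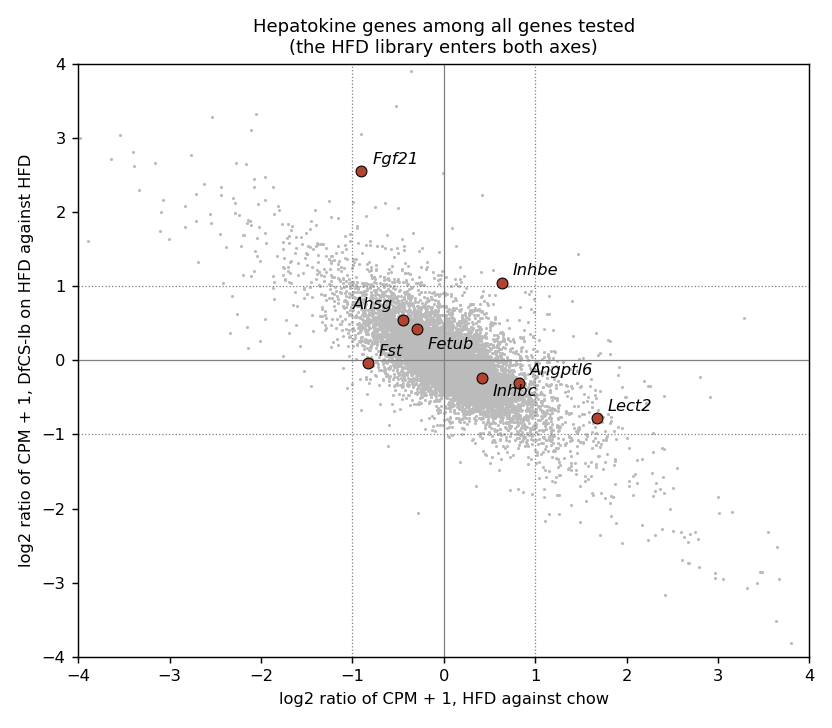
Each point is a gene with a mean of at least 1 CPM, placed by its log2 ratio of CPM + 1 for the high-fat diet against chow (horizontal) and for DfCS-Ib against the high-fat diet (vertical); dotted lines mark 2-fold, and 11 of 13153 genes lie outside the axes. The high-fat library enters both axes, which by itself tilts the cloud; Fgf21 (-0.90 and 2.55) and Inhbe (0.63 and 1.05) lie above the upper 2-fold line and Lect2 (1.67 and -0.78) to the right of the right-hand one.

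The genes nearest to each of these 3 in the pair of log2 ratios plotted there were found by Euclidean distance over the 3 libraries. Fgf21 had 1 gene within 0.5, Klf10, which encodes a transcription factor induced by TGF-beta, at 0.43. It measured 29.6, 5.98 and 12.9 CPM with DfCS-Ib, on the high-fat diet and on chow. Next came Fgl1, which encodes a liver-secreted protein related to fibrinogen, at 0.5003, and G0s2, which encodes an inhibitor of adipose triglyceride lipase, at 0.51. Inhbe had 48 genes within 0.5, the nearest being the clock output gene Dbp at 0.08, the NADPH oxidase subunit gene Ncf1 at 0.18 and the trefoil factor gene Tff3 at 0.19. Lect2 had 115 genes within 0.5, among them 8430408G22Rik at 0.05 and the vesicular glutamate transporter gene Slc17a8 at 0.07. Slc17a8 measured 21.8, 37.8 and 10.6 CPM in the same order. With 3 libraries such nearness is a description of these values alone.

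The FGF21 receptor genes were read next. For the gene lists from here on, the background is the share of all genes at least 2-fold higher and lower. It was 2.46% and 2.02% for DfCS-Ib against the high-fat diet. For the high-fat diet against chow it was 3.47% and 2.27%, and for DfCS-Ib against chow 1.62% and 0.433%. Klb, which encodes beta-klotho, had 47.8 CPM with DfCS-Ib, 42.7 CPM on the high-fat diet and 66.4 CPM on chow; the DfCS-Ib library was 1.12-fold (0.992 to 1.27) that of the high-fat diet, an interval that includes 1. Fgfr1, the receptor through which FGF21 mainly signals, was scarce in liver, at 7.36, 5.21 and 13.01 CPM, and 2.499-fold (1.85 to 3.395) lower on the high-fat diet than on chow. Fgfr4, the main hepatocyte FGF receptor, had 23.9, 37.8 and 36.6 CPM, and Fgfr3, another of the family, 15.5, 24.5 and 10.5 CPM, with the high-fat library 2.33-fold (1.87 to 2.92) above chow. Of the 5 measured genes of the FGF21 receptor list, 0 were at least 2-fold apart between the DfCS-Ib and high-fat libraries, and 1 was higher and 1 lower by as much between the high-fat and chow libraries. Kl, the sixth, was listed at 0 on another contig.

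**Figure D5:**
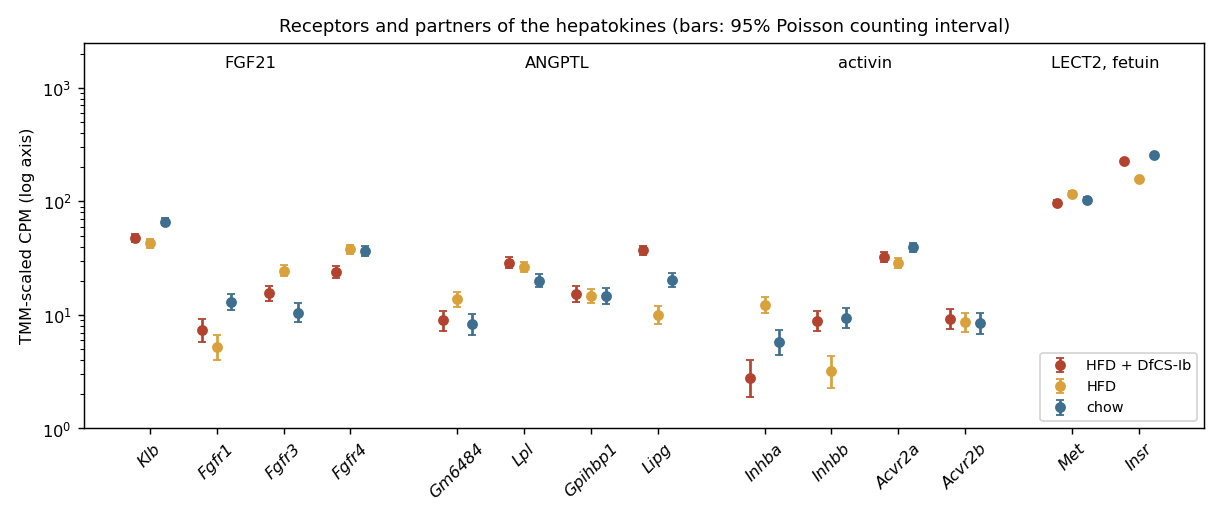
Receptors and partners of the hepatokines in TMM-scaled CPM on a log axis, with 1 point per library and its 95% Poisson interval, grouped by the hormone they act with. Lipg and Inhbb are lowest in the high-fat library (10.02 and 3.19 CPM) and Inhba is highest there (12.2 CPM), while Acvr2b stays between 8.46 and 9.23 CPM.

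Among the relatives of Angptl4 and the lipase genes, 12 were measured. Angptl8, which takes part in the control of lipoprotein lipase and stands in the files under its older symbol Gm6484, had 96, 176 and 89 counts in the DfCS-Ib, high-fat and chow libraries, and was 1.53-fold (1.19 to 1.98) lower with DfCS-Ib than on the high-fat diet. It was 1.65-fold (1.27 to 2.16) higher on the high-fat diet than on chow. Lpl, which encodes lipoprotein lipase, and Gpihbp1, which encodes its anchor on capillaries, were within 1.5-fold between every pair of libraries. Lipg, which encodes endothelial lipase, was the 1 member at least 2-fold apart by the rule in any comparison: it had 397, 129 and 219 counts, and the DfCS-Ib library was 3.69-fold (3.02 to 4.54) above the high-fat library.

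Of the activin subunits, receptors and SMADs, 13 were measured. Between the DfCS-Ib and high-fat libraries 1 was at least 2-fold higher, Inhbb, and 1 lower, Inhba, and the median log2 ratio was -0.11. The type II receptor genes Acvr2a and Acvr2b had 32.5, 28.8 and 39.3 CPM and 9.23, 8.63 and 8.46 CPM with DfCS-Ib, on the high-fat diet and on chow. Insr, the insulin receptor gene, whose product fetuin-A inhibits, had 228, 157 and 255 CPM; like the fetuin genes it was lowest on the high-fat diet, 1.62-fold (1.53 to 1.72) below chow. Met, whose product LECT2 is reported to bind, had 96.8, 117 and 103 CPM, within 1.5-fold throughout. Ctsl, which encodes the protease cathepsin L and completes the measured genes in the list of LECT2 and fetuin partners, was 2.34-fold (2.27 to 2.41) lower on the high-fat diet than on chow.

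Other liver-secreted regulators were read beside the 9. Of 19 measured, 3 were at least 2-fold higher with DfCS-Ib than on the high-fat diet and 0 lower, with a median log2 ratio of 0.23. The 3 were Fgl1, higher by 4.39-fold (4.16 to 4.63), Igfbp1, by 3.25-fold (3.07 to 3.44), and Igfbp2, its relative, by 2.61-fold (2.53 to 2.71). The product of Igfbp1 binds insulin-like growth factors, and insulin represses the gene. On the high-fat diet 2 of the 19, Igfbp1 and Igfbp2, were at least 2-fold lower than on chow and 0 higher. Igfbp1 had 410, 126 and 578 CPM with DfCS-Ib, on the high-fat diet and on chow. Igfbp2 had 960, 367 and 778 CPM in the same order. Against chow the DfCS-Ib library had 2 of 19 at least 2-fold higher: Fgl1, by 2.81-fold (2.68 to 2.95), and Enho, which encodes adropin, by 4.18-fold (3.15 to 5.62). Enho had 254, 153 and 61 counts with DfCS-Ib, on the high-fat diet and on chow, the same order of libraries as Inhbe.

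Fgf21 belongs to the known PPAR alpha targets. Of the 19 other genes of that list, Ppara included, 7 were at least 2-fold higher with DfCS-Ib than on the high-fat diet and 0 lower, with a median of 0.65. On the high-fat diet 7 were at least 2-fold lower than on chow and 0 higher, with a median of -0.59. Between the DfCS-Ib and chow libraries the list had 1 at least 2-fold higher, the pantetheinase gene Vnn1, 0 lower and a median of -0.04. The omega-hydroxylase gene Cyp4a10 had 24027, 4212 and 24023 counts in the DfCS-Ib, high-fat and chow libraries, and its DfCS-Ib and chow levels differed by 1.003-fold (0.985 to 1.02). Its close copies Cyp4a31 and Cyp4a14, whose reads may be divided among them, were 10.9-fold (8.79 to 13.7) and 6.31-fold (6.17 to 6.46) higher with DfCS-Ib than on the high-fat diet, and the thioesterase gene Acot1 was 3.81-fold (3.32 to 4.39) higher. Ppara itself was 2.15-fold (2.06 to 2.24) higher with DfCS-Ib than on the high-fat diet. The part of PPAR alpha in the Fgf21 values was not tested.

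Fgf21 and Inhbe are also known ATF4 targets. Of the 12 other genes measured in the ATF4 and integrated stress list, 4 were at least 2-fold higher with DfCS-Ib than on the high-fat diet and 0 lower, with a median of 0.63. These were the cystathionine lyase gene Cth, by 2.21-fold (2.14 to 2.28), the asparagine synthetase gene Asns, by 2.51-fold (1.63 to 3.92), the mTORC1 inhibitor gene Ddit4, by 2.56-fold (2.04 to 3.24), and the pseudokinase gene Trib3, by 2.52-fold (1.84 to 3.46). Between the high-fat and chow libraries 3 of the 12 were at least 2-fold lower on the high-fat diet, with a list median of -0.55. These 3 were Cth, Asns and Ddit4, with log2 ratios of -2.11, -1.86 and -1.71. In the same comparison 1 gene, Chac1, was at least 2-fold higher, at 1.66. Relative to chow, Cth and Asns stood lower with DfCS-Ib, at 1.95-fold (1.91 to 1.999) and 1.85-fold (1.37 to 2.52). Ddit4 was lower there too, with a log2 ratio of -0.44, and Trib3 stood higher, at 1.53-fold (1.16 to 2.04). Of the 12 genes 1, Chac1, was at least 2-fold higher with DfCS-Ib than on chow and 0 were lower, with 6 above and 6 below no difference. Chac1, a glutathione-degrading enzyme gene, had 34, 58 and 8 counts with DfCS-Ib, on the high-fat diet and on chow. Atf4 had 94.4, 113 and 93.7 CPM, and its DfCS-Ib level was 1.008-fold (0.923 to 1.101) that on chow. These are RNA levels, ATF4 protein was not measured, and its part in the Fgf21 and Inhbe values was not tested.

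The list of insulin- and glucocorticoid-responsive genes had 12 measured members, which are known to respond in opposite directions. Between the DfCS-Ib and high-fat libraries 4 were at least 2-fold higher (Igfbp1, Pck1, Tat and Zbtb16) and 2 lower, among them the insulin-induced gene Srebf1, by 7.48-fold (6.62 to 8.46). Zbtb16, a glucocorticoid-induced transcription factor gene, was higher by 5.75-fold (5.04 to 6.59). On the high-fat diet 2 of the 12 were at least 2-fold higher than on chow and 6 lower, with a median log2 ratio of -0.96. Between the DfCS-Ib and chow libraries 0 of the 12 were at least 2-fold apart.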

How the data were processed

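RNA from liver was sequenced on an Illumina platform, 1 library per group, per the labels. Each deposited table gives unnormalized counts by gene and the authors' RPKM, per the file headers; dividing a count by gene length and file total returned the deposited RPKM to within 0.000506% where a gene had 100 or more counts. The submitters' processing notes name TopHat2 and mm10; how reads were assigned to genes, with or without strand, and from which annotation is not given in the sources used here. Counts were scaled by TMM factors of 0.978, 1.048 and 0.976 for the DfCS-Ib, high-fat and chow libraries (edgeR 4.0.16, R 4.3.3). Comparison was limited to the 13153 genes averaging 1 CPM or more. A gene was counted where the log2 ratio of CPM + 1 reached 2-fold; printed folds come from scaled counts without the added 1. Intervals are 95% Poisson or Clopper-Pearson ones (scipy 1.17.1), a ratio of count ratios has the exact conditional interval, and a count of 0 was given a floor of 3 counts. With 1 library per group, intervals cover counting error only. No molecular identifiers are named, and the intervals take no account of duplicate reads. The steps were tested on simulated data. The hepatokine genes, lists and rules were chosen with earlier results of these data known. Beside the 9 genes, the text names direct receptors and partners and up to 4 genes per list at least 2-fold apart in any comparison, by size, and the 3 genes nearest to each hepatokine gene at least 2-fold apart; Trib3, Vnn1, Pck1, Tat, the overlapping genes, the cell marker genes and the genes named for a promoter motif were added after their values were seen. Some genes that this rule names are not reported here. Alternatives were other scalings (DESeq2 1.42.0 size factors among them), pseudocounts, filters and RPKM.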

Additional observations from a re-analysis of the deposited data

How the results depend on the processing

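No paired analysis was possible because each group had 1 library. For the 8 measured hepatokine genes, 24 ratios were recomputed under 5 other scalings, pseudocounts or units: none changed sign, and 6 of the 120 values crossed the 2-fold line. A further 10, without crossing it, shifted by at least the margin of their counting interval. The number of hepatokine genes at least 2-fold apart between the DfCS-Ib and high-fat libraries, 2, was 1 (Fgf21) without scaling factors and with RPKM, where Inhbe had 0.95 and 0.97, and 1 (Inhbe) with a mean of at least 5 CPM, which leaves Fgf21 and Fst out. The same minimum left 1 (Inhbe) for DfCS-Ib against chow; a pseudocount of 0.25 gave 3 there, adding Fst at -1.00157. For the high-fat diet against chow, 1 became 2, with Fgf21 lower, when the 50 most abundant genes were left out of the library size (-1.07), with a pseudocount of 0.25 (-1.32) and with RPKM (-1.35). Over all genes RPKM, with 16854 genes tested, gave 2264, 1947 and 1547 genes at least 2-fold apart for the high-fat diet against chow, DfCS-Ib against the high-fat diet and DfCS-Ib against chow, in place of 755, 590 and 270; the last was 507 with a pseudocount of 0.25 and 170 with a mean of at least 5 CPM. Leaving out the scaling factors moved the median over all genes to 0.11 for the high-fat diet against chow and to -0.10146 for DfCS-Ib against the high-fat diet. Fewer or more genes tested, or weaker shrinkage of low counts, follow from how these alternatives are built. Counting depth limits Fgf21 and Fst most.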
